A study of Mus musculus with 6 samples.

Results

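The genes described here are 41 transcripts of neurons and their synapses, followed through RNA-seq libraries of brain mural cells and of brain microvascular fragments. They were chosen by name and function from the 33460 genes listed, with earlier results of these data known. There were 5 genes whose mRNA is transported into dendrites (*Camk2a*, *Arc*, *Ddn*, *Map2* and *Nrgn*), 11 presynaptic genes, 12 postsynaptic genes, 5 genes of transmitter synthesis and vesicular loading, and 8 genes of the neuronal cytoskeleton or of neuronal identity. All 41 had a value in each library. 40 were found by their symbol and *Map2* by a synonym.

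At a chemical synapse the presynaptic terminal fuses transmitter vesicles with its membrane through the SNARE proteins, and the postsynaptic density holds the receptors in place through scaffold proteins. Most neuronal mRNA stays in the cell body, but a small set, with *Camk2a* as the best known example, is carried far into the dendrites. Around brain capillaries lie endothelial cells, mural cells (pericytes and vascular smooth muscle cells), astrocyte endfeet and, close by, neuronal processes. Neither isolation selected neurons.

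Both groups were taken on postnatal day 6 from brains of mice of the *Pdgfrb-eGFP/NG2-DsRed* line, which carry a green reporter under the control of *Pdgfrb* and a red reporter under the control of NG2 (*Cspg4*). The 3 samples of sorted mural cells held cells positive for both reporters, collected by FACS from a collagenase digest. The 3 samples of microvascular fragments were digested with collagenase and captured with magnetic beads against CD31 (*Pecam1*), so that they hold endothelial cells with the mural cells still attached. According to the methods, each of 3 brains was divided between the isolations. The labels do not say which mural cell sample and which fragment sample came from the same brain. NG2 is also made by oligodendrocyte progenitor cells, and the paper reports the green reporter in neuronal cells of periventricular areas. The sort therefore rests on the overlap of the reporters, which the paper takes to be specific for mural cells. No gate against neurons or glia is described.

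The labels were first checked against their markers. *Pdgfrb*, the receptor that recruits mural cells, had 54.8, 46.8 and 34.6 FPKM (sequenced fragments scaled by transcript length and library depth) in fragments 1, 2 and 3 and 460.9, 473.9 and 400.8 FPKM in mural cells 1, 2 and 3. *Cspg4* was 6.47-fold higher in mural cells. All 12 mural cell markers on the list were higher in mural cells and all 8 microglial markers were lower. *Pecam1*, an endothelial adhesion molecule, kept 62.9% of its fragment level in mural cells (234 ± 34.0 against 371 ± 6.74 FPKM, SD, n = 3), and 10 of the 12 endothelial markers were not called. Even so, 11 of the 12 had a ratio of mean FPKM below 1. In 10 of the 12 each mural cell library was below each fragment library, an order found in 24.5% of all genes tested. The depth differed between the groups. It came to approximately 5.41 to 5.99 M fragments on protein-coding genes for the microvascular libraries and to 2.38, 1.04 and 1.06 M for mural cells 1, 2 and 3. On a transcript of 3000 bases, 3 sequenced fragments, taken here as the limit that a count of 0 allows, stand for 0.23 to 0.25 FPKM in the microvascular libraries and for 0.6, 1.43 and 1.34 FPKM in mural cells 1, 2 and 3. This covers counting error only.

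Neuronal transcripts were present at low levels in both preparations. Of the 41 genes, 28 stayed below 10 FPKM in all 6 libraries, while 6 were above 10 FPKM in all of them. No gene was listed at 0 in a microvascular library, whereas 9 were at 0 in at least 1 mural cell library, 1 of them in the most deeply sequenced mural cells 1. The groups were compared with limma on log2(FPKM + 1), in a fit over the 14801 genes that reached 1 FPKM in 3 or more samples, among them 35 of the 41. Calls of lower or higher in mural cells required an adjusted p under 0.05 together with a ratio of mean FPKM below 0.5 or above 2. Of the 35, 5 were called lower (*Camk2a*, *Arc*, *Grin1*, *Gria1* and *Homer1*), or 14.29%, and 0 were called higher. Over all genes tested, 10.1% (1493 genes) were called lower and 6.43% (952 genes) higher, whereas quantile normalization gave 1105 lower and 1185 higher. *Arc*, *Grin1* and *Gria1* reached the filter of 1 FPKM in the fragments alone and were below it in each mural cell library, so that they could enter the test only by being higher in fragments, and the count of 5 is no support for a difference of the group. At an unadjusted p under 0.05, 11 of the 35 were lower and 1, *Map2*, was higher. The share of all genes past this threshold was not computed, and *Arc*, *Grin1* and *Gria1* are among the 11. These counts are therefore no support for a difference of the group either. In a bulk sample, fewer cells of a type and less RNA per cell cannot be told apart.

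**Figure D1:**
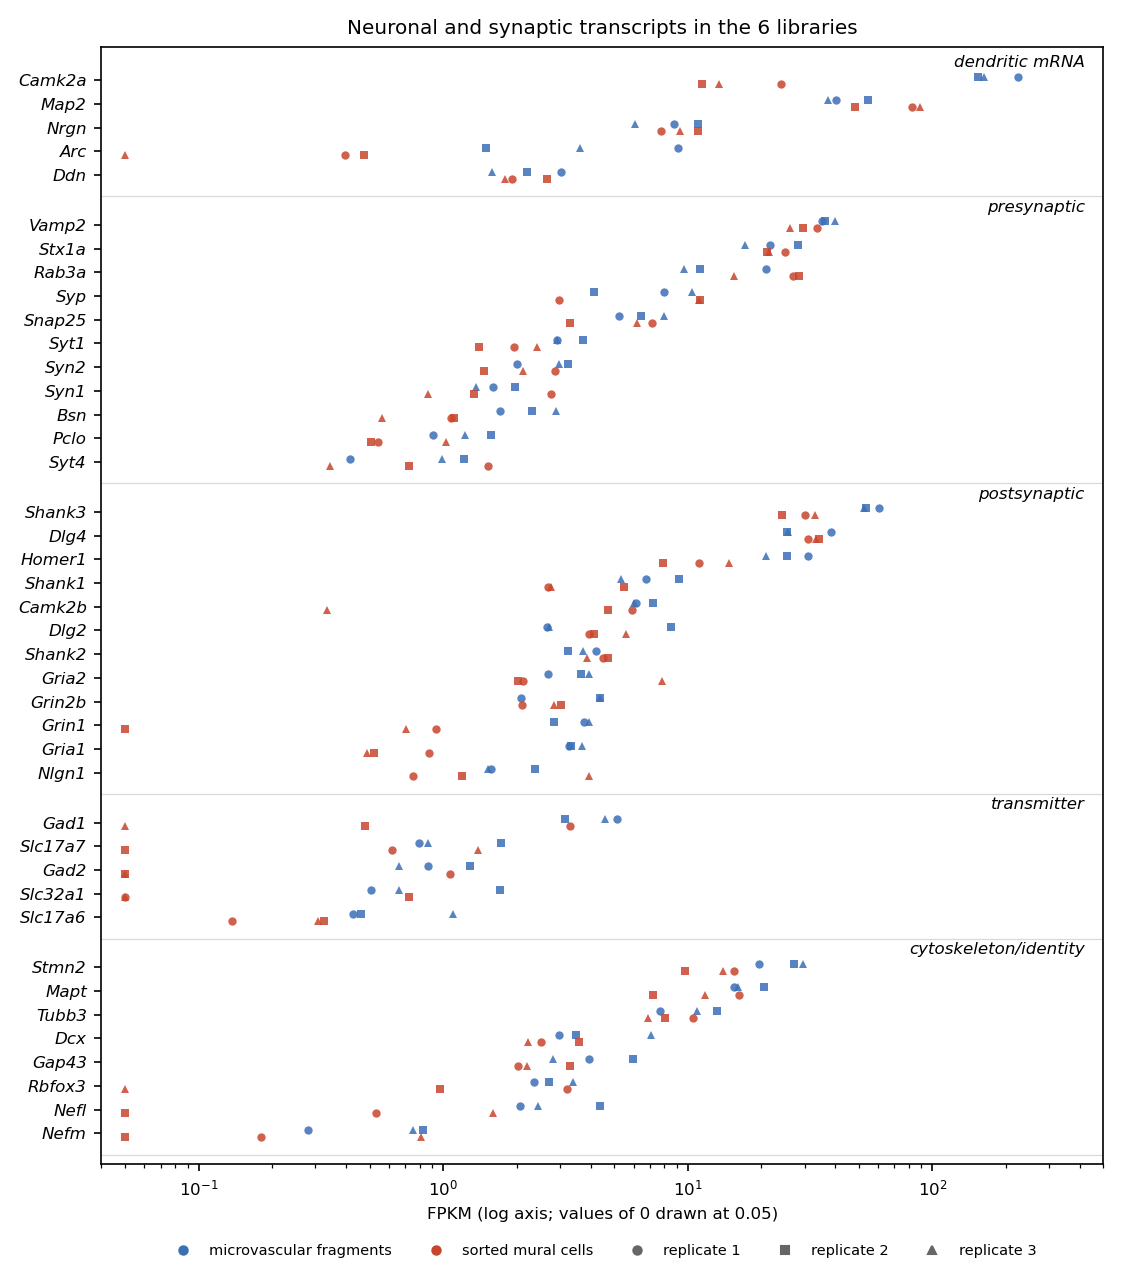
FPKM (log axis) of the 41 neuronal and synaptic genes in each of the 3 microvascular fragment libraries (blue) and the 3 mural cell libraries (red), grouped by role, with symbols for the replicate and values of 0 drawn at 0.05. *Camk2a* stands at 154 to 224 FPKM in fragments and 11.4 to 24.1 FPKM in mural cells, whereas for most of the other genes the colours lie close together or mix.

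Across the 41 genes the ratio of mean FPKM in mural cells to that in fragments had a median of 0.602, beside 0.943 over all genes tested. The 41 include 6 genes that were not tested, each with a ratio below 1, so these medians are of unlike sets. The ratio was below 1 for 31 genes and above 1 for 10. With quantile normalization the median became 0.876 and the split 23 to 18, with the median over all genes tested at 1.03. In 12 of the 35 tested genes each mural cell library was below each fragment library, where 24.5% of all genes tested had this order. *Arc*, *Grin1* and *Gria1* are among the 12, and the way they passed the filter fixed this order for them. In 0 of the 35 each mural cell library was above each fragment library, beside 16.5% of all genes tested. Most of the neuronal genes are at low levels. Of all genes tested with a mean of 1 to 10 FPKM, 13.38% were called lower and 5.11% higher. Of the 25 neuronal genes tested with a mean below 10 FPKM (*Pclo*, at 0.962 FPKM, among them), 3 were called lower. They are *Arc*, *Grin1* and *Gria1*, which entered the test through the fragments alone, so their count is no support for a difference.

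The dendritic mRNAs split. *Camk2a* encodes the alpha subunit of calcium/calmodulin-dependent protein kinase II, an abundant enzyme of the excitatory postsynapse. The gene lies at chr18:61085272-61147806 on the plus strand (NCBIM37), with no other annotated gene over it. It was at 224, 154 and 163 FPKM in fragments 1, 2 and 3 and at 24.1, 11.4 and 13.4 FPKM in mural cells 1, 2 and 3. The lowest fragment library was thus far above the highest mural cell library. The means were 180 ± 38.0 and 16.3 ± 6.82 FPKM (SD, n = 3), an 11.1-fold lower level in mural cells. The log2 fold change was -3.44 (SE 0.28, 95% interval -4.09 to -2.78, limma, adjusted p = 0.00026). This rested on approximately 4848, 3088 and 3664 fragments against 205, 41 and 51. The call held in 18 of 18 alternative analyses, with adjusted p between 0.00013 and 0.0036. *Camk2a* was the most abundant of the 41 genes in each fragment library, with 36.7%, 27.5% and 31.1% of their summed FPKM, and in mural cells 1, 2 and 3 it made up 6.43%, 3.80% and 3.80%.

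*Arc*, an immediate early gene whose mRNA moves to active synapses, lies at chr15:74499513-74503000 on the minus strand. It had 9.08, 1.496 and 3.63 FPKM in the fragments and 0.397, 0.473 and 0 FPKM in mural cells. The fragment libraries differed widely among themselves (4.73 ± 3.91 FPKM), while mural cells stayed at 0.290 ± 0.254 FPKM. The log2 fold change was -1.94 (SE 0.52, limma, adjusted p = 0.034). In sequenced fragments the values stand for about 118, 18 and 49 against 2, 1 and 0, a depth-corrected ratio of 0.0656 with a counting interval of 0.0134 to 0.195. Without fragments 1 the ratio of mean FPKM was 0.113, beside 0.0612 with all libraries. The call was lost when fragments 1 (adjusted p = 0.076), fragments 3 (0.10) or mural cells 1, 2 or 3 (0.063, 0.056 and 0.078) were left out, and also with no filter on low values (0.057) or with quantile normalization (0.10).

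Immediate early genes, which many cell types switch on within minutes of a stimulus, were lower in mural cells as a group. Of 10 on the list, among them *Fos* and *Egr1*, 9 could be tested and 9 were lower in mural cells, with a median ratio of 0.0994. Their summed level was 1805 to 2331 FPKM in fragments and 144 to 201 FPKM in mural cells. The part of this difference in the values of *Arc* was not tested.

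The other dendritic mRNAs did not follow. *Map2*, a microtubule-associated protein of dendrites, was at 40.3, 54.8 and 37.5 FPKM in fragments and 82.8, 48.1 and 89.1 FPKM in mural cells. Mural cells 1 and 3 were above all fragment libraries and mural cells 2 lay among them. The ratio was 1.66 and the log2 fold change 0.69 (SE 0.26, 95% interval 0.08 to 1.29), which did not pass the adjustment (limma, adjusted p = 0.10). Without mural cells 2 the log2 fold change was 0.96 (limma, adjusted p = 0.015), but the ratio did not pass and *Map2* was not called. *Nrgn*, a calmodulin-binding protein of the postsynapse, had 8.77, 11.0 and 6.09 FPKM in fragments and 7.76, 11.1 and 9.30 FPKM in mural cells. *Ddn*, a dendritic protein of the postsynaptic cytoskeleton, had a ratio of 0.933. For *Nrgn* and *Ddn* the groups overlapped, with 95% intervals of the log2 fold change of -0.49 to 0.75 and -0.75 to 0.64. The *Nrgn* interval left out a 2-fold change on this scale in either direction. The scale adds 1 to FPKM, which shrinks changes of low genes, so the *Ddn* interval does not leave out a ratio of 0.5. Its values in mural cells 1, 2 and 3 rested on about 12, 7 and 5 fragments. The median ratio of the 5 dendritic mRNAs was 0.933, and it turned to 1.20 with quantile normalization.

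**Figure D2:**
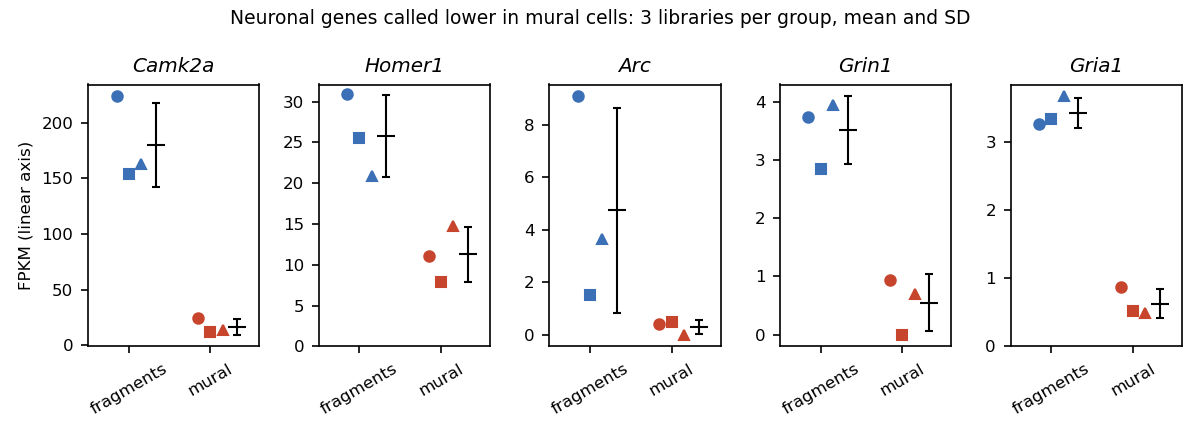
FPKM (linear axes from 0) of the 5 genes called lower in mural cells, with 1 point per library (circle, square and triangle for replicates 1, 2 and 3) and the mean with SD (n = 3) beside the points. In each panel all mural cell points lie below all fragment points, and *Arc* has the widest spread among the fragments (1.496 to 9.08 FPKM).

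The postsynaptic genes held the other 3 calls. *Homer1*, a scaffold that links glutamate receptors to the cell's calcium stores, lies at chr13:94073712-94174917 on the plus strand. It was at 30.9, 25.5 and 20.8 FPKM in fragments and 11.1, 7.95 and 14.7 FPKM in mural cells, with no overlap. The ratio was 0.437 and the log2 fold change -1.15 (SE 0.25, limma, adjusted p = 0.017). The call was lost without fragments 1 (adjusted p = 0.078) or fragments 2 (0.070), and without mural cells 2 the ratio no longer passed although the adjusted p was 0.030. A short form of *Homer1* is an immediate early transcript, and the values hold all forms together. The part of the immediate early genes in this difference was not tested.

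*Gria1*, a subunit of the AMPA type of glutamate receptor, lies at chr11:56824889-57143746 on the plus strand. It was at 3.26, 3.33 and 3.68 FPKM in fragments and 0.873, 0.521 and 0.488 FPKM in mural cells. These levels are low but tight, with means of 3.42 ± 0.224 and 0.627 ± 0.213 FPKM. The log2 fold change was -1.45 (SE 0.26, limma, adjusted p = 0.0075), from about 79, 75 and 93 fragments against 8, 2 and 2 (depth-corrected ratio 0.197, counting interval 0.1001 to 0.349). The call held in 17 of 17 alternative analyses, but the gene had reached the filter in the fragments alone.

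*Grin1*, the obligatory subunit of the NMDA type of glutamate receptor, lies at chr2:25146701-25174707 on the minus strand. It had 3.75, 2.85 and 3.94 FPKM in fragments and 0.937, 0 and 0.703 FPKM in mural cells. The log2 fold change was -1.59 (SE 0.34, limma, adjusted p = 0.015), from about 69, 49 and 76 fragments against 7, 0 and 2. The ratio of mean FPKM was 0.156, and 0.1001 without mural cells 1. The gene E130003G02Rik overlaps *Grin1*, and as the strand setting of the counting is not stated, their reads may not be separated. The call was lost without fragments 1 (adjusted p = 0.059) or fragments 3 (0.065), with quantile normalization (0.054) and with a pseudocount of 0.1 (0.066).

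*Shank3*, *Dlg4* and *Homer1* had the highest mean levels among the postsynaptic genes. *Shank3*, a master scaffold of the postsynaptic density, was at 60.4, 53.3 and 52.6 FPKM in fragments and 30.02, 24.3 and 33.0 FPKM in mural cells. The mural cell libraries were all lower, with a log2 fold change of -0.92 (SE 0.15, limma, adjusted p = 0.0048), but the ratio of 0.525 was just outside the threshold. Without mural cells 3 it passed (adjusted p = 0.0061). *Dlg4*, which encodes PSD-95, showed no such difference. It had 38.5, 25.5 and 25.7 FPKM in fragments and 31.1, 34.5 and 33.3 FPKM in mural cells, a ratio of 1.103 with a 95% interval of the log2 fold change from -0.27 to 0.60. *Shank2*, the relative of *Shank3*, had a ratio of 1.17, with 3.23 to 4.20 FPKM in fragments and 3.88 to 4.71 FPKM in mural cells.

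Genes of the same family were set against each other within each library, for 4 pairs chosen with the values known. From fragments to mural cells the log2 ratio of *Camk2a* to *Camk2b* fell by 2.45, that of *Shank3* to *Shank2* fell by 1.103, that of *Gria1* to *Gria2* fell by 1.44 and that of *Grin1* to *Grin2b* fell by 1.29. These values are of log2(FPKM + 1). On that scale the 3 fragment libraries lay above the 3 mural cell libraries in each pair. As the pairs were chosen for this difference, it is a description only. An exact permutation test gave p = 0.1 for each pair, the smallest value that 3 against 3 samples allow, so it could not decide. Without the pseudocount, *Camk2a* exceeded *Camk2b* 36.5, 21.3 and 27.1 times in fragments and 4.07, 2.43 and 40.1 times in mural cells, so that mural cells 3, where *Camk2b* was near 0, then lay above the fragments.

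*Camk2b*, *Gria2* and *Nlgn1*, named here after their values were seen, each depended on mural cells 3. *Camk2b*, the beta subunit of the same kinase, had 5.92, 4.71 and 0.334 FPKM in mural cells 1, 2 and 3 against 6.13, 7.23 and 6.01 FPKM in fragments. *Gria2*, the AMPA receptor subunit that limits calcium entry, had 2.12, 2.02 and 7.83 FPKM in mural cells against 2.68, 3.67 and 3.95 FPKM in fragments. *Nlgn1*, an adhesion molecule of excitatory synapses, had 0.751, 1.20 and 3.94 FPKM in mural cells against 1.57, 2.36 and 1.53 FPKM in fragments. Thus *Gria2* and *Nlgn1* were highest and *Camk2b* was lowest in the same library. Without mural cells 3 the log2 fold changes were -0.24, -0.52 and -0.51 for *Camk2b*, *Gria2* and *Nlgn1*, and none was called. Mural cells 3 also had the highest summed level of the 8 astrocyte markers, at 982.5 FPKM beside 299 to 559 FPKM in the other 5 libraries, and of the 7 oligodendrocyte progenitor markers, at 158 FPKM beside 44.4 to 63.6 FPKM. Their part in the values of *Gria2* and *Nlgn1* was not tested.

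The 3 remaining postsynaptic genes were not called. They were *Grin2b*, another NMDA receptor subunit (ratio 0.735), *Dlg2*, a scaffold related to PSD-95 (0.983), and *Shank1*, a relative of *Shank3* (0.514). *Dlg2* was at 2.66, 8.51 and 2.71 FPKM in fragments and 3.93, 4.12 and 5.59 FPKM in mural cells, and without fragments 2 its ratio was 1.69. *Shank1* passed when mural cells 2 was left out (adjusted p = 0.043). The median ratio of the 12 postsynaptic genes was 0.651, and 0.820 with quantile normalization.

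Promoters were read for the genes with an entry in the RefSeq table (GRCm38.p6), which held 26 of the 41. *Homer1* and *Grin1* are the called genes with an entry. *Syn1*, which encodes the vesicle protein synapsin I and had a ratio of 1.01, is shown beside them as a neuronal promoter whose transcript did not differ between the groups beyond their spread. Its values in mural cells 1, 2 and 3 rested on only about 15, 3 and 2 fragments. *Araf*, *Timp1* and *Gm15029* overlap *Syn1* in the annotation, so that their reads may not be separated. Each line gives the 250 bases before an annotated start, 5′ to 3′ on the gene's strand, for *Homer1* chr13:93303507-93303756 (plus strand), for *Grin1* chr2:25319188-25319437 (minus strand) and for *Syn1* chrX:20920919-20921168 (minus strand). Capitals mark the cAMP response element TGACGTCA, its half-site TGACG, which is also part of the full element, and the left (CAGCACC) and right (GGACAGC) parts of RE1, the element bound by the neuronal repressor REST. All were searched on both strands.
Homer1: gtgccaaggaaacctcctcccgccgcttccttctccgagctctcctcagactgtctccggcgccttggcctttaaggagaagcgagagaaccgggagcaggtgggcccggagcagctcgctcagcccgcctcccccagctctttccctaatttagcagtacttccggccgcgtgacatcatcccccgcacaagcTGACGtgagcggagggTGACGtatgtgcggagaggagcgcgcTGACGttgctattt
Grin1: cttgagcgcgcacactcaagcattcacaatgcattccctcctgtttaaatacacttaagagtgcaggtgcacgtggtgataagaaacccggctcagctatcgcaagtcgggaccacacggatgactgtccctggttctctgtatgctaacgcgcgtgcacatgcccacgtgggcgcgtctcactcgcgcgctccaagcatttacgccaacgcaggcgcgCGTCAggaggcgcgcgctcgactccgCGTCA
Syn1: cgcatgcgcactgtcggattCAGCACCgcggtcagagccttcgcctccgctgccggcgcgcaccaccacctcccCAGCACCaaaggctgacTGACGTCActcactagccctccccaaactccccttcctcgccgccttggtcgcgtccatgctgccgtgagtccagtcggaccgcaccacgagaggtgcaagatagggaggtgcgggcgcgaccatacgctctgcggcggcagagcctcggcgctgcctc
The *Homer1* window held 3 half-sites, *Grin1* held 2, and *Syn1* held the full element and 2 left parts of RE1. A window with at least 3 half-sites was found in 0.688% and 1 with at least 2 in 3.90% of all 32851 promoters. The full element was in 1.55%, the half-site in 17.8%, the left part of RE1 in 5.73% and the right part in 5.28% of them. The half-site was added to the search after the sequences were read. A second annotated start of *Homer1* had none of these letters. The 26 genes had 37 promoters, and the shares above are to be read against these. Of the 37, the full element was in 1 (*Syn1*), the half-site in 8, the left part of RE1 in 3 (*Nlgn1*, *Syn1* and *Tubb3*) and the right part in 3 (*Gad2*, *Gria2* and *Map2*).

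None of the 11 presynaptic genes was called in either direction. *Vamp2*, the SNARE protein of the synaptic vesicle, was the most abundant, at 35.4, 36.5 and 39.9 FPKM in fragments and 33.7, 29.6 and 26.1 FPKM in mural cells. The groups did not overlap, but the log2 fold change was -0.32 (95% interval -0.65 to 0.01, limma, adjusted p = 0.16). *Stx1a*, its partner in the target membrane, had 21.6, 28.2 and 17.2 FPKM in fragments and 25.0, 21.2 and 21.4 FPKM in mural cells, so that the mural values lay within the range of the fragments (95% interval -0.44 to 0.51). *Rab3a*, a GTPase of synaptic vesicles, had the highest ratio of the 35 neuronal genes tested, at 1.70. Its values were 20.8, 11.3 and 9.64 FPKM in fragments and 26.9, 28.5 and 15.5 FPKM in mural cells, which overlapped (limma, adjusted p = 0.16). *Mpv17l2* overlaps *Rab3a* in the annotation, so that their reads may not be separated.

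The presynaptic genes at lower levels, named after their values were seen, were just as mixed. *Snap25*, the third SNARE protein, had 5.23, 6.41 and 7.997 FPKM in fragments and 7.15, 3.30 and 6.23 FPKM in mural cells. *Syp*, a membrane protein of synaptic vesicles, ranged from 4.14 to 10.4 FPKM in fragments and from 2.97 to 11.2 FPKM in mural cells. The synapsins *Syn1* and *Syn2* had ratios of 1.01 and 0.788, and the calcium sensor *Syt1* had 0.602. The active zone scaffolds *Bsn* and *Pclo* had ratios of 0.398 and 0.561. For *Bsn* the groups did not overlap (1.71 to 2.898 against 0.564 to 1.11 FPKM), and it was called lower only in the fit with no intensity trend (limma, adjusted p = 0.045, beside 0.10). The median ratio of the 11 presynaptic genes was 0.849, and it turned to 1.13 with quantile normalization. Their summed level was 97.47 to 100.6 FPKM in fragments and 87.7 to 106 FPKM in mural cells.

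**Figure D3:**
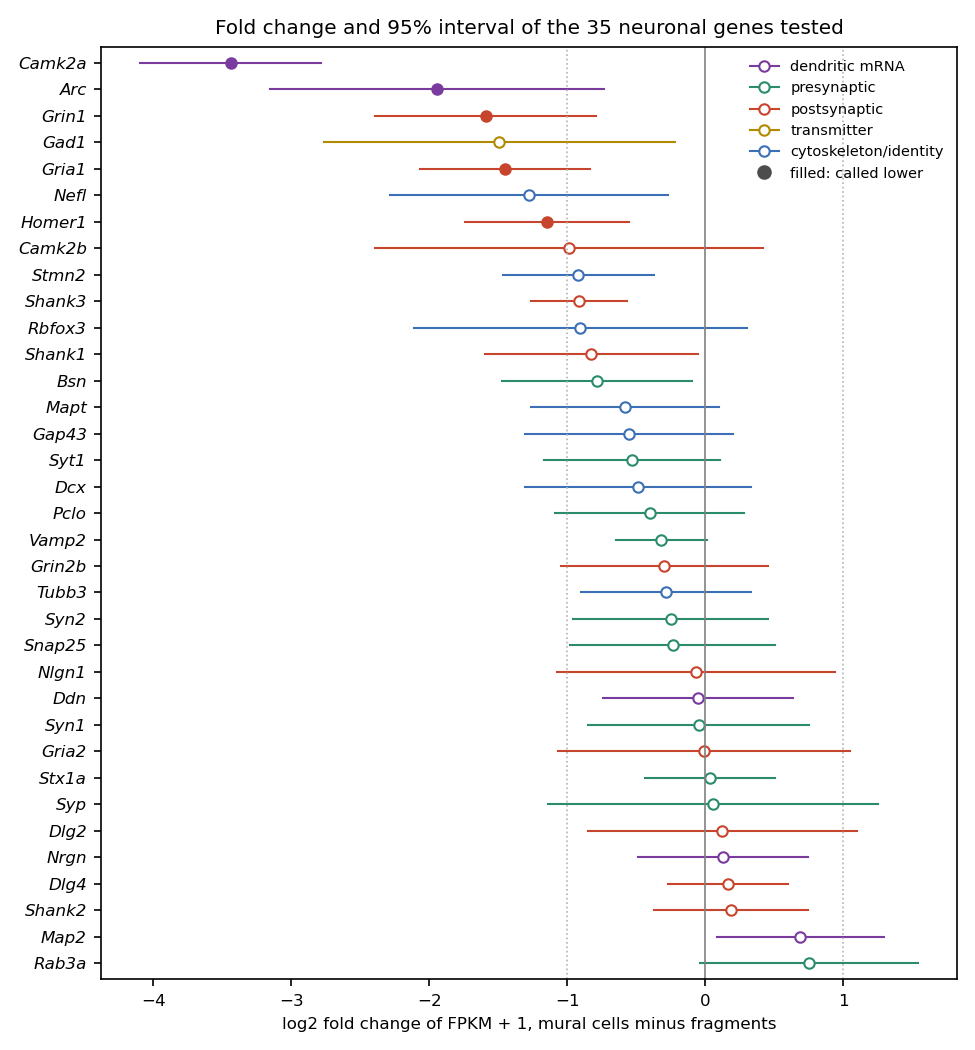
Log2 fold change of FPKM + 1 (mural cells minus fragments) with its 95% interval for the 35 genes tested, coloured by role, with filled circles for genes called lower and dotted lines at a 2-fold change. The 5 filled circles are *Camk2a*, *Arc*, *Grin1*, *Gria1* and *Homer1*, and 23 of the 35 intervals span 0.

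The genes of transmitter synthesis and loading, which tell glutamatergic from GABAergic neurons, were close to the detection limit. *Gad1*, a GABA-synthesizing enzyme, was the highest. It had 5.12, 3.14 and 4.60 FPKM in fragments and 3.31, 0.481 and 0 FPKM in mural cells, with mural cells 1 inside the range of the fragments. The log2 fold change was -1.49 (SE 0.54, limma, adjusted p = 0.093). Without mural cells 1 it was called lower (adjusted p = 0.0088). The annotated gene 1500002O10Rik overlaps *Gad1*. *Slc17a7*, the vesicular glutamate transporter of cortical neurons, had 0.799, 1.73 and 0.863 FPKM in fragments and 0.618, 0 and 1.39 FPKM in mural cells, or about 10, 20 and 11 fragments against 3, 0 and 3. *Gad2*, *Slc17a6* and *Slc32a1* did not pass the filter either. With *Syt4*, a synaptotagmin, and *Nefm*, a neurofilament subunit, 6 of the 41 were not tested, and none of them exceeded 1.73 FPKM in any library. Without the filter none of the 6 was called, with adjusted p between 0.23 and 0.96. The ratio was below 1 for all 5 transmitter genes in the deposited scale and for 3 of the 5 with quantile normalization.

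The cytoskeletal and identity genes all had ratios below 1 (8 of 8, and 7 of 8 with quantile normalization), with a median of 0.560, but none was called. *Stmn2*, a microtubule regulator of growing axons, came closest. It had 19.6, 27.2 and 29.6 FPKM in fragments and 15.4, 9.73 and 13.9 FPKM in mural cells, and each fragment library was above each mural cell library. The log2 fold change was -0.92 (SE 0.23, limma, adjusted p = 0.028), and the ratio of 0.511 missed the threshold. It passed without fragments 1 (adjusted p = 0.036), without mural cells 1 (0.031), without mural cells 3 (0.046) and after scaling by protein-coding FPKM (0.028). The paper lists *Stmn2* in its catalogue of brain mural cell-enriched genes, which joined several studies, whereas its values were lower in mural cells here. *Mapt*, which encodes the axonal protein tau, had 15.4, 20.6 and 16.0 FPKM in fragments and 16.1, 7.18 and 11.8 FPKM in mural cells. *Tubb3*, a neuronal tubulin, had 7.73, 13.2 and 10.9 FPKM in fragments and 10.5, 8.05 and 6.85 FPKM in mural cells. For both the groups overlapped.

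*Nefl*, a neurofilament subunit named after its values were seen, had the lowest ratio of this group at 0.240. It was at 2.07, 4.39 and 2.43 FPKM in fragments and 0.532, 0 and 1.596 FPKM in mural cells, about 30, 59 and 36 fragments against 3, 0 and 4 (limma, adjusted p = 0.074), and passed without mural cells 3 (0.029). *Nefl* and *Nefm* overlap in the annotation. *Rbfox3*, the NeuN antigen of mature neurons, had 2.35, 2.70 and 3.39 FPKM in fragments and 3.21, 0.970 and 0 FPKM in mural cells. It was called lower only when mural cells 1 was left out (adjusted p = 0.043). *Dcx*, a marker of migrating young neurons, and *Gap43*, a growth cone protein, had ratios of 0.616 and 0.590, with overlapping groups.

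**Figure D4:**
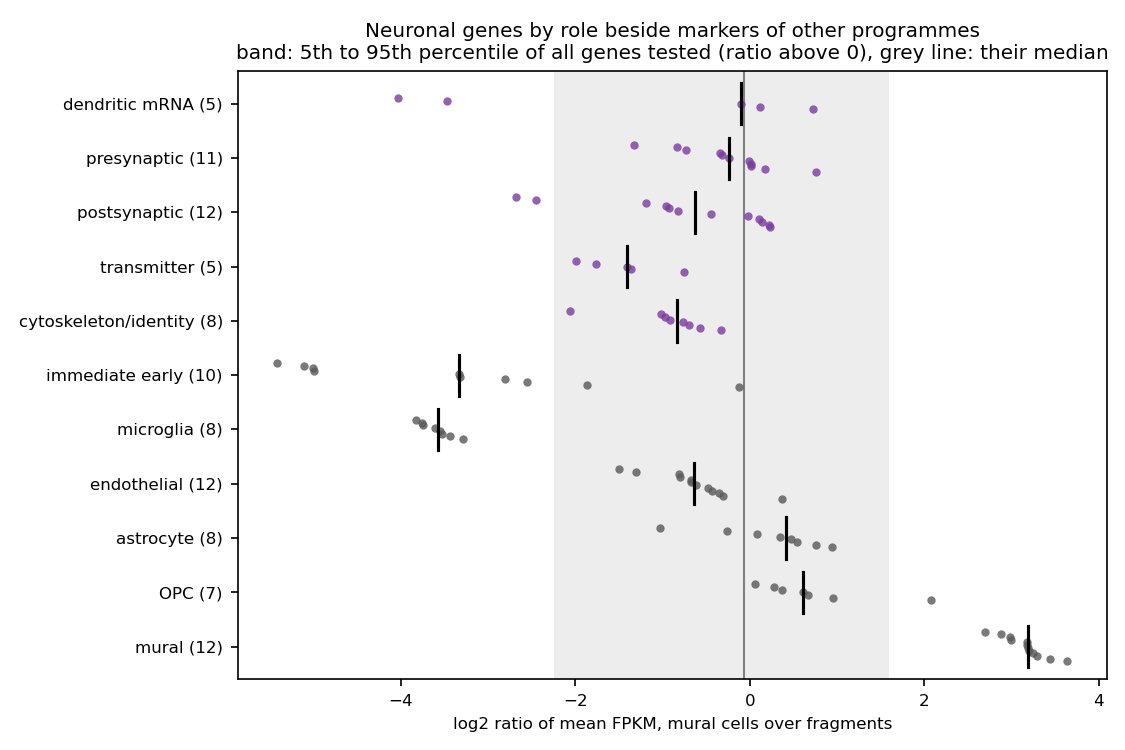
Log2 ratio of mean FPKM (mural cells over fragments) for each gene of the 5 neuronal roles (purple) and of 6 other lists (dark grey), with a black bar at each list's median. The grey band spans the 5th to 95th percentile of all genes tested with a ratio above 0 and the grey line marks their median. The microglial, immediate early and mural cell lists lie to the outside (median ratios 0.0836, 0.0994 and 9.10), whereas most neuronal genes lie in the band, with *Camk2a*, *Arc*, *Grin1* and *Gria1* to its left.

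Other neuronal genes, from 5 further lists by role, were read in the same fit. Of 69 genes in the presynaptic, postsynaptic, transmitter and cytoskeletal lists, 56 were tested, and 8 were higher and 4 lower in mural cells, with a median ratio of 0.956. Over all genes tested 6.43% were higher and 10.1% lower, and the counts of each list below are to be read against these shares. The presynaptic list had 3 higher and 1 lower of 19 tested. The vesicle protein *Sv2a* was at 4.20, 3.72 and 5.17 FPKM in fragments and 10.6, 11.5 and 12.3 FPKM in mural cells. The adhesion molecule *Nrxn2* and the endocytic GTPase *Dnm1* were 2.58-fold and 2.76-fold higher (limma, adjusted p = 0.00061 and 0.022). *Syngr1*, a vesicle membrane protein, was at 35.01, 33.9 and 83.0 FPKM in fragments and 3.05, 0.338 and 3.33 FPKM in mural cells, a ratio of 0.0442. Of the 16 postsynaptic genes tested, 2 were higher and 0 lower. *Nlgn2*, an adhesion molecule of inhibitory synapses, was 2.75-fold higher and the NMDA receptor subunit *Grin2a* 4.81-fold higher, from 0.359 to 0.627 FPKM to 2.12 to 2.62 FPKM. *Grin2a* reached the filter in mural cells alone, so that it entered the test through the group where it is higher.

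The further cytoskeletal and identity list had 3 higher and 3 lower genes of 19 tested. *Thy1*, a surface protein of neurons and also of other cells, was at 2.13, 3.84 and 2.24 FPKM in fragments and 16.9, 43.7 and 22.3 FPKM in mural cells. *Uchl1*, a ubiquitin hydrolase, and *Dpysl3*, a regulator of growth cones, were 2.21-fold and 2.07-fold higher. *Uchl1* is also in the paper's catalogue of brain mural cell-enriched genes, so its level need not come from neurons. The lower ones were the adhesion molecule *L1cam* (ratio 0.1497, and 0.0811 without mural cells 1), the RNA-binding protein *Elavl4* (0.237) and the endosomal protein *Nsg2* (0.367). In the further transmitter list 2 of 9 genes were tested and 0 were called. Of 18 genes of neuron subclasses, 8 could be tested and 4 were lower, among them *Lhx6* (ratio 0.401) of interneurons, *Reln* (0.179, and 0.297 without fragments 3), which encodes an extracellular guidance protein, and *Sst*. *Sst*, which encodes somatostatin, had 1.62, 2.33 and 1.61 FPKM in fragments and was at 0 in all mural cell libraries. It entered the test through the fragments alone. On a transcript of 3000 bases a count of 0 allows up to 1.43 and 1.34 FPKM in mural cells 2 and 3, about the level of the fragments, and more on a shorter transcript. The limit for the length of *Sst* was not computed, so its call is no support for a difference. *Elavl4* also reached the filter in the fragments alone.

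The lists of other cell types gave the composition beside these values. The microglial markers summed to 1625 to 1956 FPKM in fragments and 114 to 176 FPKM in mural cells, with a median ratio of 0.0836 and 8 of 8 lower. The astrocyte list had 0 of 8 and the oligodendrocyte progenitor list 0 of 6 called, the oligodendrocyte list 3 of 5 lower, and the ependymal and choroid plexus list 3 of 4 lower. The endothelial list had 2 of 12 lower with a median ratio of 0.641, the fibroblast list 5 of 5 higher, and the erythroid list 0 of 3 called. The part of any of these cell types in the neuronal values was not tested.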

How the data were processed

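RNA-seq was performed on 3 samples of sorted mural cells and 3 samples of microvascular fragments. The authors prepared stranded total RNA libraries, mapped the read pairs with TopHat2 2.0.4 to the NCBIM37 assembly, dropped duplicates with Picard 1.92 and ran Cufflinks 2.2.1 (submitters' processing notes and methods). The deposited values are FPKM per Ensembl gene and library. The strand setting is not given in the sources used here. Replicates were not pooled.

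Of 9 identifiers listed more than once, 1 line was kept, which left 33460 genes, 33116 of them in the GENCODE annotation of NCBIM37. The fit used limma 3.58.1 (R 4.3.3) on log2(FPKM + 1) (intensity trend, Benjamini-Hochberg adjustment over all 14801 genes tested). Since FPKM are not counts, no count test was used, and fold changes on this scale understate changes of low genes. The fit was tested on simulated data. According to the design text the samples came from 3 animals, and the labels do not tie each sample to its animal. Genes with 1 transcript gave, per library, the FPKM that 1 fragment is worth, and of their low values 98.2 to 99.0% were whole within 0.1. For genes with several transcripts, such as *Camk2a* (7), *Arc* (2), *Homer1* (13), *Gria1* (5) and *Grin1* (14), fragments were computed with the length of the longest, so that they and the 95% counting intervals made from them are approximate. Other steps used Python 3.11.15, pandas 2.3.3, NumPy 2.4.6 and SciPy 1.17.1.

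The genes and lists were chosen with earlier results of these data known. Named with values were each gene past the thresholds, in each role the 3 with the highest mean FPKM, the 3 highest and 3 lowest ratios among those tested, the untested genes by their range, in each further neuronal list up to 3 genes past the thresholds in each direction, and *Pdgfrb*, *Cspg4* and *Pecam1*. Others were chosen after their values were seen. 2 genes of the lists had no match. The values of 1 gene are not reported here. Alternatives were another pseudocount, filter, scaling, threshold, trend or fold, a replicate block and leaving out each sample.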

Additional observations from a re-analysis of the deposited data

How the results depend on the processing

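*Camk2a* and *Gria1* were called lower in every alternative in which they were tested (18 and 17), whereas *Arc* was lost in 8 of 17, *Grin1* in 5 of 17 and *Homer1* in 4 of 18. *Gria1* reached the filter of 1 FPKM in the fragments alone, so its 17 are not read as support on a par with *Camk2a*. In no alternative was a gene among the 41 called higher. The number called lower, 5, became 2 with a filter at 5 FPKM (which *Arc*, *Grin1* and *Gria1* do not pass), 3 with quantile normalization and 2 at an adjusted p under 0.01, and ranged from 3 to 7 when each sample was left out. It was 3 without fragments 1 or fragments 3, and 7 without mural cells 1 or mural cells 3. Over all genes, the number called lower, 1493, became 948 with the filter at 5 FPKM and 845 at an adjusted p under 0.01, with 988 to 1751 when each sample was left out. The number called higher, 952, was 711 to 1002. With quantile normalization 1185 genes were higher and 1105 lower.

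Quantile normalization moved the median log2 ratio of all genes tested from -0.08 to 0.04. With it the median ratio was 0.876 for the 41 genes, 1.20 for dendritic mRNAs, 1.13 for presynaptic, 0.820 for postsynaptic, 0.782 for transmitter and 0.752 for cytoskeletal and identity genes. The cause was not tested. When each sample was left out, these medians ranged from 0.569 to 0.742, 0.810 to 1.098, 0.673 to 0.941, 0.579 to 0.714, 0.329 to 0.415 and 0.492 to 0.649, in the same order.

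With the replicate number as a block, 900 genes were higher and 1344 lower, and 5 of the 41 were lower. The samples share numbers, but the deviations of same-numbered samples correlated at only 0.02 to 0.082 (other pairs -0.061 to 0.01). All 6 samples correlated best with their own number, which is a hint from the data and not from the design. After the data were seen, genes at 0 throughout a group were left out, and in a further fit the test was limited to protein-coding genes. Each left 5 of the 41 called lower. On a transcript of 3000 bases, 3 fragments stand for 1.43 and 1.34 FPKM in mural cells 2 and 3, which limits what low values there can show.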

Other observations

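Transcripts that mark particular neurons differed between the fragment samples themselves. *Neurod1*, a transcription factor of granule neurons, was at 0, 0.126 and 4.93 FPKM in fragments 1, 2 and 3. *Cbln1*, a synaptic organizer made by cerebellar granule cells, was at 0.291, 0.472 and 3.86 FPKM, and *Reln*, which young granule cells also make, was at 3.15, 4.19 and 10.8 FPKM. All 3 were highest in fragments 3, and *Syngr1* was as well, at 83.0 FPKM beside 35.01 and 33.9 FPKM. In mural cells *Cbln1* was at 0 in all 3 libraries. These genes were picked after their values were seen, and no test was made.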
